A study of Mus musculus with 9 samples.

Results

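The genes described here are 10 genes of the Notch pathway, namely 3 receptors (Notch1, Notch2 and Notch3), 3 ligands (Dll1, Dll3 and Jag1) and 4 targets of the pathway (Hes1, Hes5, Hey1 and Nrarp). They were found by their Ensembl identifiers among the 48526 genes of the count table, and each of the 10 matched 1 gene and passed the filter on low counts. The cells were neural stem cells (NSCs) that had been isolated from the subependymal zone (SEZ), a neurogenic niche in the wall of the lateral ventricles, of wild-type mice 2 to 4 months old, and grown as neurospheres with EGF and FGF. The strain is C57BL/6 in the labels and C57BL/6J in the methods of the study. RNA was collected at 0 h, which stands for undifferentiated NSCs, and at 1 h and 6 h of differentiation, which was induced by culture on an adhesive substrate without EGF and with FGF kept. The 9 libraries are 3 replicates of each of the 3 time points, and all libraries of 1 h and 6 h come from cells on the substrate and without EGF. For cells fixed at such early times the methods describe seeding a day ahead in medium with EGF. Whether this also held for the RNA is not stated, so parts of adhesion and EGF removal in any change cannot be told apart. The labels name no deletion and no transgene. Total counts per library were between 65871454 and 105592597 reads on genes. All 9 markers of NSCs that were looked up passed the filter on low counts. Their summed level was between 5409 and 8448 normalised read counts (CPM, counts scaled to library size) in the 9 libraries. C1qa, a marker of microglia, had 0 counts, and the 6 microglial markers together reached at most 0.526 CPM.

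Notch receptors are membrane proteins that are activated by ligands on a neighbouring cell, the Delta-like and Jagged proteins. Activation leads to cleavage of the receptor by the gamma-secretase complex and to the release of its intracellular domain, which enters the nucleus, binds the DNA-binding protein RBPJ and switches on genes of the HES and HEY families. HES and HEY proteins are transcriptional repressors that keep genes of neuronal differentiation low, and in the SEZ the pathway is known for keeping NSCs undifferentiated and quiescent. Dll3 differs from the other ligands in that it acts mainly inside the cell that makes it and does not activate Notch in a neighbour, and Nrarp encodes a small protein that dampens Notch signalling.

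The promoter windows of 3 members are shown because that of Hes5 holds the letters through which RBPJ is known to bind. That of Nrarp lacks these but holds letters that HES and HEY proteins are known to bind, and that of Dll3 holds none of the letters searched. Each window has 300 bases, from 250 before to 50 after the RefSeq start site, taken from RefSeq on GRCm38.p6, and capitals mark matches to TGGGAA, the core of the RBPJ motif, on either strand. They are the window of Hes5 on the plus strand (chr4:154960673-154960972), that of Nrarp on the plus strand (chr2:25180508-25180807) and that of Dll3 on the minus strand (chr7:28301736-28302035), all written in the direction of transcription.
Hes5: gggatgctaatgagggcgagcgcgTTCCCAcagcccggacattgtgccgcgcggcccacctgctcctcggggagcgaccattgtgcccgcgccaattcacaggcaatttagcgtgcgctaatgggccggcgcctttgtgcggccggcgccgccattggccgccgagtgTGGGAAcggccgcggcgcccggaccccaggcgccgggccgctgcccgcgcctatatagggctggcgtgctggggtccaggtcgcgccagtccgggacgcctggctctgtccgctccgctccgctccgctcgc
Nrarp: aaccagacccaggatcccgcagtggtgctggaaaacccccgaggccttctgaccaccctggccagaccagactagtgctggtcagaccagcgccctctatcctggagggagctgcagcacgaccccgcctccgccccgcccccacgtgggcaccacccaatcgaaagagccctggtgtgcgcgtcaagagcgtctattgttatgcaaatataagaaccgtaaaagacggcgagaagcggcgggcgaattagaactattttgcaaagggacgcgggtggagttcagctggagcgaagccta
Dll3: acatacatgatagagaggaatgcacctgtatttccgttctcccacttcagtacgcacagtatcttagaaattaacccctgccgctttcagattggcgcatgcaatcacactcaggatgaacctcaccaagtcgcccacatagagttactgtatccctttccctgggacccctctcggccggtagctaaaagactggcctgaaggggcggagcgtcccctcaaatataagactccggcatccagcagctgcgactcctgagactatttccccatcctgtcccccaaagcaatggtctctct
Of the 10 members 8 matched the RefSeq windows, in 9 windows since Dll1 had 2 start sites. Hes1 and Hey1 had no window and were not searched. Hes5 was the only member with a match to TGGGAA in these windows, with 1 match on the reverse strand whose first base lay at -226 and 1 on the forward strand at -82, and both extended to the longer form GTGGGAA. Of the 32851 windows of all genes 25.6% held the core and 6.38% the longer form. The N box CACNAG and the class C E box CACGNG, which HES and HEY proteins are known to bind, were searched on both strands as well, and a CACGAG counts for both. Nrarp had 2 N boxes and 1 class C E box, and Notch1 had 3 N boxes, of which those at -3 and -1 overlap. Notch3 had 2 N boxes and 1 class C E box, Notch2 had 1 of each, and Jag1 had 2 class C E boxes. Each window of Dll1 had 1 class C E box, and 1 of them also had 1 N box. The windows of Hes5 and Dll3 had no N box and no class C E box. Across all windows 42.5% held an N box and 27.5% a class C E box. These matches describe the letters of the windows and not binding.

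**Figure D1:**
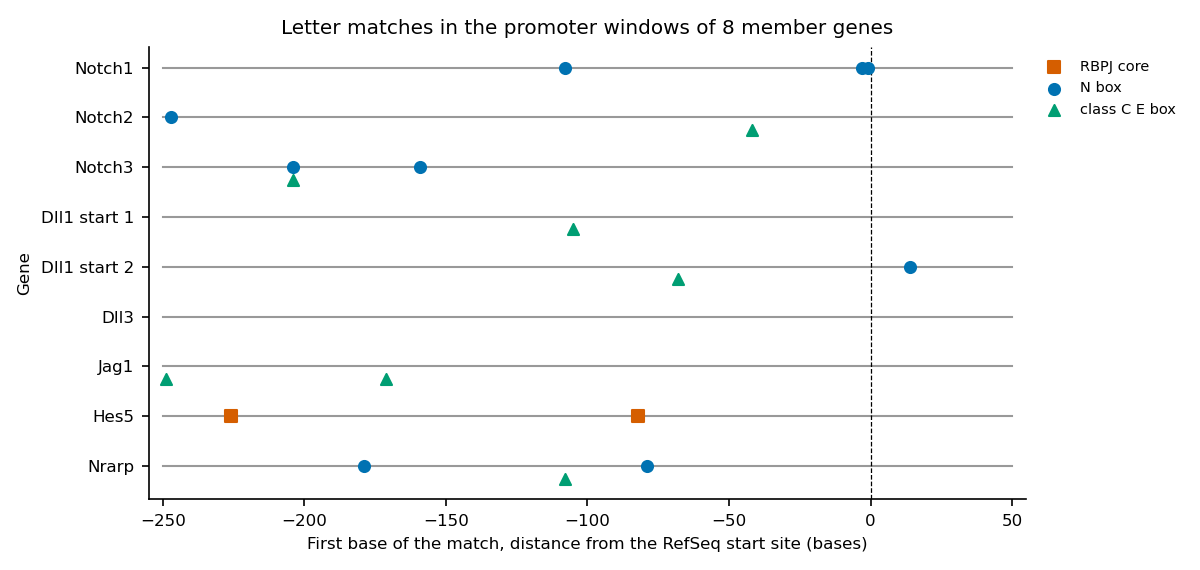
Positions of the letter matches in the 9 promoter windows of 8 members. Hes1 and Hey1 had no window and were not searched. The horizontal axis gives the distance of the first base of a match from the RefSeq start site in bases, each line is 1 window, squares are RBPJ cores, circles N boxes and triangles class C E boxes. The 2 squares, at -226 and -82, are both in the window of Hes5, and the line of Dll3 is empty.

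Undifferentiated NSCs expressed all 3 receptors, with Notch1 highest, Dll1 above Dll3 and Jag1, and Hes1 and Hey1 above Hes5 and Nrarp. Levels between genes are compared as CPM per kilobase of exon, as means ± SD of 3 libraries at 0 h. Notch1 was first, with 22.7 ± 3.10 CPM per kilobase, followed by Dll1 with 17.5 ± 3.96, Notch3 with 14.4 ± 0.847, Hes1 with 13.5 ± 2.05, Hey1 with 12.3 ± 2.97 and Notch2 with 9.11 ± 0.689 CPM per kilobase. The lower group was made of Dll3 with 4.06 ± 0.228, Jag1 with 3.73 ± 0.714, Hes5 with 3.02 ± 1.65 and Nrarp with 0.602 ± 0.141 CPM per kilobase. Neighbours in this order overlapped in their libraries, except Notch2 with Dll3 and Hes5 with Nrarp. The place of Nrarp depends on how reads were counted, since 79.4% of its exon bases and 31.8% of those of Hes5 lie under a gene on the opposite strand and would give no counts if strand was not used. Per kilobase of the exon bases that no other gene shares, a length chosen after the data had been seen, Nrarp was at 2.93 ± 0.686 CPM and overlapped Jag1 and Hes5 (4.43 ± 2.42). Hes5 then came before Dll3, and Dll1 (22.1 ± 4.98) no longer overlapped Notch3 (15.3 ± 0.902). With the length of the longest transcript in place of all exon bases, which was chosen after the data had been seen, Hes1 (18.7 CPM per kilobase) and Hey1 (16.6) came before Notch3 (14.5), and Notch1 (34.1) no longer overlapped Dll1 (20.7). At 1 h Hey1 (mean 11.4, libraries from 8.15 to 14.9) came before Hes1 (mean 9.78, from 7.68 to 12.5). Jag1 (mean 5.19, from 3.85 to 6.58) then came before Dll3 (mean 4.36, from 4.06 to 4.64), and the libraries of both pairs overlapped. At 6 h the order on exon bases was that of 0 h, with Dll3 at 8.04 ± 0.443 CPM per kilobase, now apart from Jag1 at 4.89 ± 0.794.

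**Figure D2:**
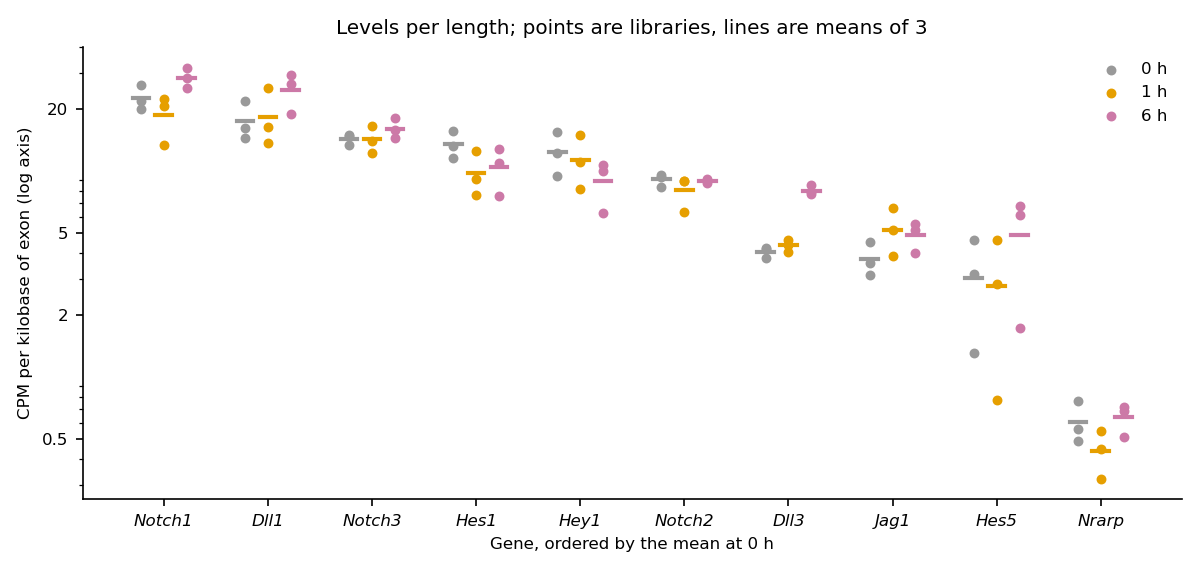
Level of each member in CPM per kilobase of exon on a log axis, ordered by the mean at 0 h. Points are the 3 libraries of a time point and lines their means, and the step from Notch2 (9.11 at 0 h) to Dll3 (4.06 at 0 h) and that from Hes5 (3.02) to Nrarp (0.602) are the only ones without overlap at 0 h on this length.

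The first question was which members had changed 1 h and 6 h after induction. Dll3 rose about 2-fold at 6 h, and it was the only member past the threshold of an adjusted p of 0.05 in the fit with time point alone. In the fit that also took up the replicate number as a factor, called the block here, the ligands Dll1 and Jag1, the receptor Notch1 and the target Hes5 were higher at 6 h as well, and the targets Hes1 and Hey1 were lower. Replicate number is taken from the sample labels, and libraries of the same number deviated together. What such libraries share is not stated, so p-values measure the spread between these libraries, which may be technical. In these bulk samples fewer cells that express a gene and less RNA per cell cannot be told apart.

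With time point alone, 0 of 10 members were called at 1 h against 0 h in edgeR, where 0.0424% of all 18858 tested genes were called. At an unadjusted p under 0.05 the number was 0 of 10 in edgeR and 1 (Jag1) in DESeq2, which also called 0 after adjustment, where it called 0.525% of all tested genes. At 6 h against 0 h 1 of 10 members was called, against 2.42% of all tested genes, and at 6 h against 1 h 1 of 10, against 2.14%. With the block 2 of 10 members were called at 1 h against 0 h, 1 higher and 1 lower, where 3.51% of all tested genes were called (1.36% higher and 2.14% lower). At 6 h against 0 h 7 of 10 were called, 5 higher and 2 lower, against 34.9% of all tested genes (17.4% higher and 17.5% lower). At 6 h against 1 h 6 of 10 were called, 5 higher and 1 lower, against 35.6% (18% higher and 17.5% lower). DESeq2 with the block called 2, 6 and 6 members in these comparisons, where it called 4.97%, 32.4% and 33.2% of all tested genes. The median log2 fold change of the members with the block was -0.16 at 1 h against 0 h and 0.25 at 6 h against 0 h, and that of all tested genes was 0.0007 and -7.8e-05. The comparisons share their libraries at 0 h or at 1 h, so their values are not independent of each other.

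**Figure D3:**
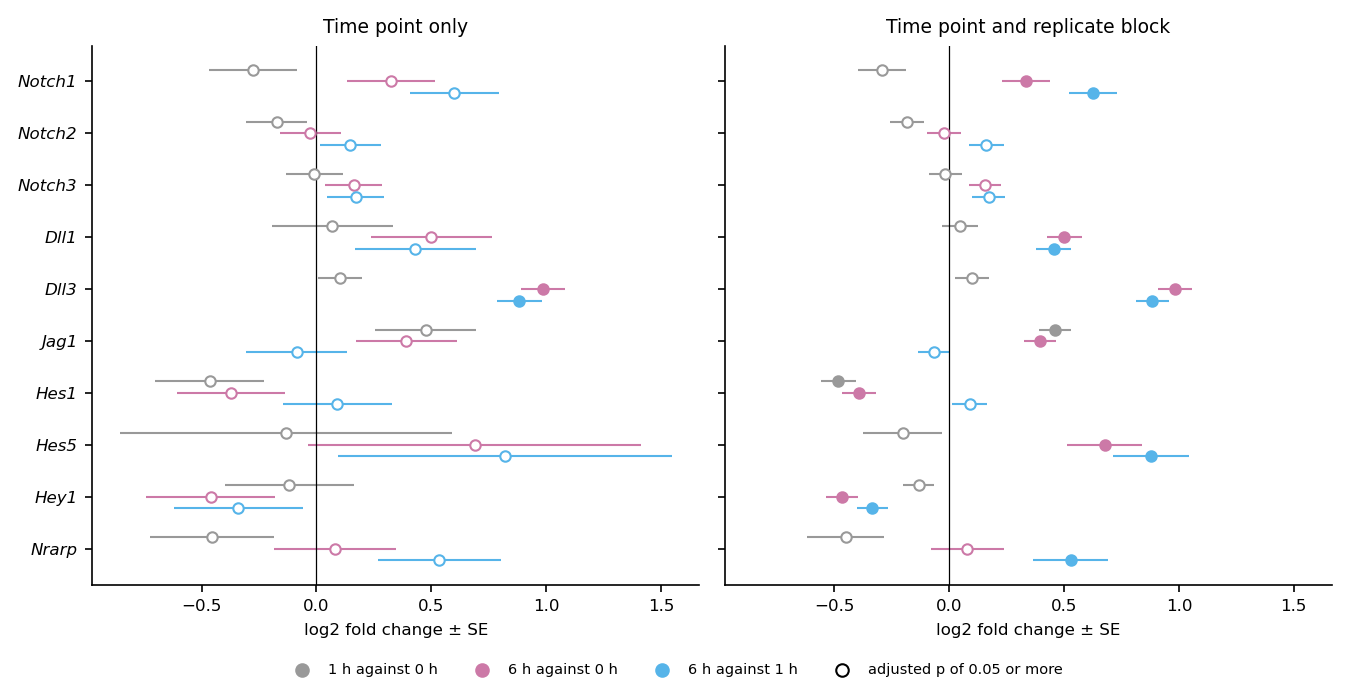
Log2 fold change of each member (horizontal axis, ± standard error, SE) in the 3 comparisons, from the edgeR fit with time point alone on the left and with the replicate block on the right. Filled points have an adjusted p under 0.05, and on the left only Dll3 is filled, at 0.98 and 0.88, whereas on the right 7 members are filled at 6 h against 0 h.

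Of the receptors, Notch1, a receptor that NSCs of the SEZ are known to need, was lowest at 1 h and highest at 6 h. It had 372, 313 and 286 CPM at 0 h in replicates 1, 2 and 3, then 318, 294 and 190 CPM at 1 h, and 453, 359 and 402 CPM at 6 h. All 6 h libraries were above all 1 h libraries, which 12.1% of all tested genes showed in this direction, whereas 0 h overlapped both. The log2 fold change of Notch1 at 6 h against 1 h was 0.60 (standard error, SE, 0.19, adjusted p = 0.152 in edgeR), and with the block 0.62 (SE 0.10, adjusted p = 0.000540). Against 0 h the 6 h value was the higher one in each replicate, as for 31.5% of all tested genes, and the block fit gave 0.33 (adjusted p = 0.0236 in edgeR). This call was lost without any 1 of the 0 h libraries, without 6 h replicate 3 (adjusted p up to 0.168), and in DESeq2 with the block. At 1 h against 0 h Notch1 was lower in 3 of 3 replicates, by -0.09 to -0.59 on the log2 scale, which 22.4% of all tested genes showed, and it was not past the threshold (adjusted p = 0.158 in edgeR with the block). Without 1 h replicate 2 or 6 h replicate 3 this comparison was past it with the block, at an adjusted p down to 0.0343.

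Notch2 and Notch3 were not called in any comparison in either fit of all 9 libraries. Notch2 had 104, 101 and 89.7 CPM at 0 h, then 96.4, 96.7 and 68.2 CPM at 1 h, and 99, 96.3 and 94.1 CPM at 6 h. The groups overlapped, and 1 h replicate 3 was the lowest library, as it was for Notch1. Notch3 had 109, 121 and 120 CPM at 0 h, then 114, 134 and 98.9 CPM at 1 h, and 117, 146 and 128 CPM at 6 h. It was higher at 6 h than at 0 h in 3 of 3 replicates, as were 31.5% of all tested genes, and the groups overlapped. The block fit gave 0.16 on the log2 scale (SE 0.07, adjusted p = 0.106 in edgeR). Without 0 h replicate 3 or 1 h replicate 3 the block fit put Notch3 past the threshold at 6 h against 0 h, down to an adjusted p of 0.0046. Of the CPM of the 3 receptors, Notch1 had a share of 49.0% ± 3.62 per length at 0 h, 45.2% ± 3.74 at 1 h and 53.1% ± 4.51 at 6 h (n = 3, SD). Notch2 had 19.7% ± 0.524 at 0 h and 16.7% ± 0.332 at 6 h, without overlap between the libraries. A share also depends on the other receptors. The mean of Notch2 itself was 98.2 CPM at 0 h and 96.5 CPM at 6 h, and that of Notch1 was 323 and 405 CPM. Such shares were not formed for all tested genes. Notch3, which is also known as a receptor of mural cells of blood vessels, had 31.3% ± 3.60 at 0 h and 30.2% ± 4.21 at 6 h. The receptor shares use all exon bases and depend on the length chosen. With the longest transcript the levels at 0 h were 34.1 for Notch1, 9.35 for Notch2 and 14.5 CPM per kilobase for Notch3, so Notch1 would have a larger share.

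**Figure D4:**
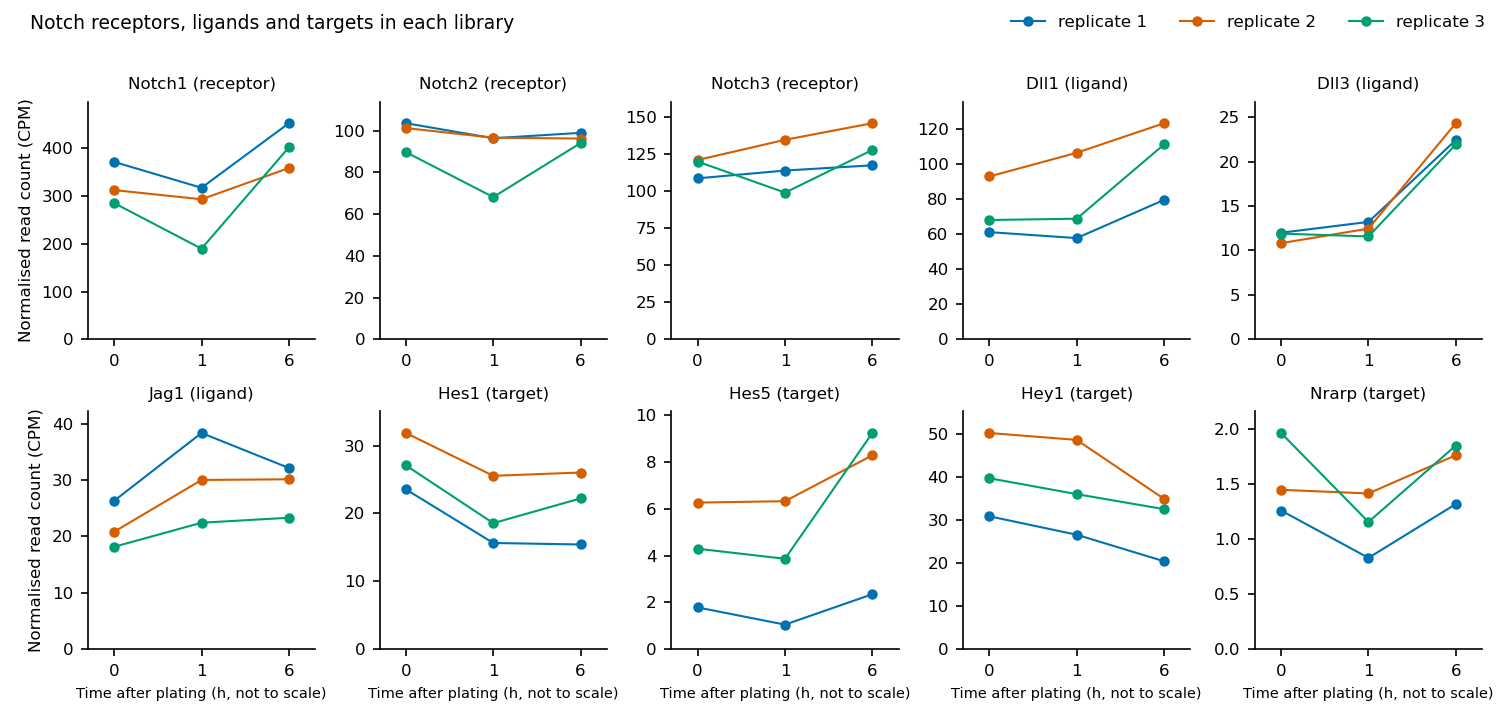
Normalised read count of each member in CPM (vertical axes from 0) at the 3 time points, with the 3 replicates as coloured lines. The lines of Dll3 lie together and rise from 10.8 to 12 CPM at 0 h to 21.9 to 24.3 CPM at 6 h, whereas those of Hes5, Hey1, Hes1, Dll1 and Jag1 run at different heights for different replicates.

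All 3 ligands were higher at 6 h than at 0 h in every replicate, as were 31.5% of all tested genes, and Dll3 rose most among the ligands. Dll3 had 12, 10.8 and 11.9 CPM at 0 h in replicates 1, 2 and 3, then 13.2, 12.5 and 11.6 CPM at 1 h, and 22.4, 24.3 and 21.9 CPM at 6 h. The 0 h and 1 h libraries overlapped, and each 6 h library was above all of them, which was so for 12.8% of all tested genes against 0 h. Its log2 fold change was 0.98 at 6 h against 0 h (SE 0.10, adjusted p = 0.0059 in edgeR) and 0.88 at 6 h against 1 h (SE 0.10, adjusted p = 0.0099 in edgeR). Both calls were kept in 9 of 9 fits lacking 1 library, with adjusted p up to 0.0383 and 0.0439, and the second was lost when only the 6 libraries of 1 h and 6 h were fitted (adjusted p = 0.0546 in edgeR). At 1 h against 0 h its log2 fold change was 0.10 (adjusted p = 1.00 in edgeR).

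Dll1, the Delta-like ligand that activates Notch on neighbouring cells, was the most abundant of the 3 ligands. It had 61.1, 92.9 and 68.0 CPM at 0 h, then 57.7, 106 and 68.8 CPM at 1 h, and 79.5, 123 and 111 CPM at 6 h. Each replicate was highest at 6 h, but 6 h replicate 1 lay below 0 h replicate 2, so the groups overlapped. Its log2 fold change at 6 h against 0 h was 0.50 in both fits, with a SE of 0.26 and an adjusted p of 0.379 in edgeR without the block, and a SE of 0.08 and an adjusted p of 0.000277 with it. With the block it was past the threshold in 9 of 9 fits lacking 1 library, and also at 6 h against 1 h (0.46, adjusted p = 0.000591 in edgeR).

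Jag1, a ligand of the Jagged type, was the ligand called at 1 h with the block. It had 26.3, 20.8 and 18.1 CPM at 0 h, then 38.3, 30 and 22.4 CPM at 1 h, and 32.1, 30.1 and 23.3 CPM at 6 h. Every replicate was higher at 1 h and at 6 h than at 0 h, which 20.8% and 31.5% of all tested genes were too, and the groups overlapped. At 1 h against 0 h its log2 fold change with the block was 0.46 (SE 0.07, adjusted p = 0.0027 in edgeR), and without the block 0.48 (SE 0.22, adjusted p = 1.00). The value with the block at 6 h against 0 h was 0.40 (adjusted p = 0.000800 in edgeR), and at 6 h against 1 h it was -0.07 (adjusted p = 0.504). Both block calls of Jag1 held in 9 of 9 fits lacking 1 library. Of the CPM per length of the 3 ligands, Dll1 had 68.7% ± 6.26 at 0 h and 65.3% ± 5.91 at 6 h, Dll3 had 16.3% ± 2.92 and 21.5% ± 2.52, and Jag1 had 15.0% ± 3.92 and 13.2% ± 3.45 (n = 3, SD). The ligand shares use all exon bases as well and depend on the length chosen.

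The targets did not move as a group. Hes1 and Hey1 were lower at 6 h than at 0 h in 3 of 3 replicates, Hes5 was higher in 3 of 3, and Nrarp was higher in 2 and lower in 1, where 31.7% of all tested genes were lower and 31.5% higher in 3 of 3. Hes1, a repressor that oscillates in neural progenitors, had 23.5, 31.9 and 27.1 CPM at 0 h, then 15.6, 25.5 and 18.6 CPM at 1 h, and 15.4, 26.0 and 22.2 CPM at 6 h. Each replicate had its highest value at 0 h, and the groups overlapped because replicate 2 was high throughout. With the block Hes1 was lower at 1 h (log2 fold change -0.48, SE 0.08, adjusted p = 0.0034 in edgeR) and at 6 h (-0.39, SE 0.08, adjusted p = 0.0014 in edgeR), in 9 of 9 fits lacking 1 library each, and 6 h against 1 h gave 0.09 (adjusted p = 0.386). Without the block the values were -0.46 (adjusted p = 1.00 in edgeR) and -0.37 (adjusted p = 0.478).

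Hey1, a repressor of the HEY family, had 30.9, 50.3 and 39.7 CPM at 0 h, then 26.6, 48.7 and 36.0 CPM at 1 h, and 20.4, 34.9 and 32.5 CPM at 6 h. The order of the replicates was the same at each time point, and each replicate was lowest at 6 h. With the block its log2 fold change was -0.47 at 6 h against 0 h (SE 0.07, adjusted p = 0.000204 in edgeR) and -0.33 at 6 h against 1 h (SE 0.07, adjusted p = 0.0023 in edgeR), and without the block the first was -0.46 (SE 0.28, adjusted p = 0.461). At 1 h against 0 h it was -0.13 with the block (adjusted p = 0.326 in edgeR), and the difference from the value of Hes1 at 1 h was not tested.

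Hes5, the HES gene whose promoter window above holds the 2 RBPJ cores, had 1.78, 6.27 and 4.30 CPM at 0 h, then 1.05, 6.33 and 3.87 CPM at 1 h, and 2.35, 8.29 and 9.25 CPM at 6 h. Replicate 1 was below the other two at every time point, with 67 to 173 counts, and the rise at 6 h was 0.40, 0.40 and 1.11 on the log2 scale in replicates 1, 2 and 3. The log2 fold change at 6 h against 0 h was 0.68 with the block (SE 0.16, adjusted p = 0.0060 in edgeR) and 0.69 without it (SE 0.72, adjusted p = 0.712). Without 0 h replicate 3 the block call was lost (adjusted p = 0.0764 in edgeR). Against 1 h the block fit gave 0.88 (SE 0.16, adjusted p = 0.0012 in edgeR), which held in 9 of 9 fits lacking 1 library.

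Nrarp had the lowest level of all members, with 53 to 198 counts per library. It had 1.26, 1.45 and 1.96 CPM at 0 h, then 0.828, 1.41 and 1.15 CPM at 1 h, and 1.32, 1.76 and 1.85 CPM at 6 h. Every replicate was lowest at 1 h, with overlapping groups. At 1 h against 0 h 22.4% of all tested genes were lower in 3 of 3 replicates. The change of Nrarp at 6 h against 1 h was 0.53 on the log2 scale with the block (SE 0.16, adjusted p = 0.0229 in edgeR), and this was kept in 4 of 9 fits lacking 1 library. It was lost without replicate 1 or replicate 3 of 1 h or without any 1 of the 6 h libraries (adjusted p up to 0.113). Of the CPM per length of the 4 targets, Hes5 had 9.73% ± 3.59 at 0 h and 18.3% ± 6.79 at 6 h, and Hey1 had 41.8% ± 0.627 at 0 h, 47.0% ± 1.25 at 1 h and 36.5% ± 2.14 at 6 h, without overlap between the time points for Hey1 (n = 3, SD). The share of Hey1 was larger at 1 h although its mean was lower, at 37.1 CPM against 40.3 CPM at 0 h. These shares use all exon bases and so depend on whether strand was used, as the levels do. They also depend on the other targets, and such shares were not formed for all tested genes.

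The members differed in how much of their spread went with time and how much with the replicate number. Dll3 had 97.5% of the sum of squares of its log2 CPM between time points and 0.509% between replicate numbers. Hes5 was at the other end, with 15.1% between time points and 80.8% between replicate numbers, and its highest library at 0 h was 3.52 times its lowest. Hey1 (70.5%), Dll1 (58.6%), Hes1 (57.1%) and Jag1 (56.2%) also had most of their spread between replicate numbers, whereas Notch1 had 56.8% between time points and 26.8% between replicate numbers. The medians over all tested genes were 26.9% for time and 48.9% for the replicate number.

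**Figure D5:**
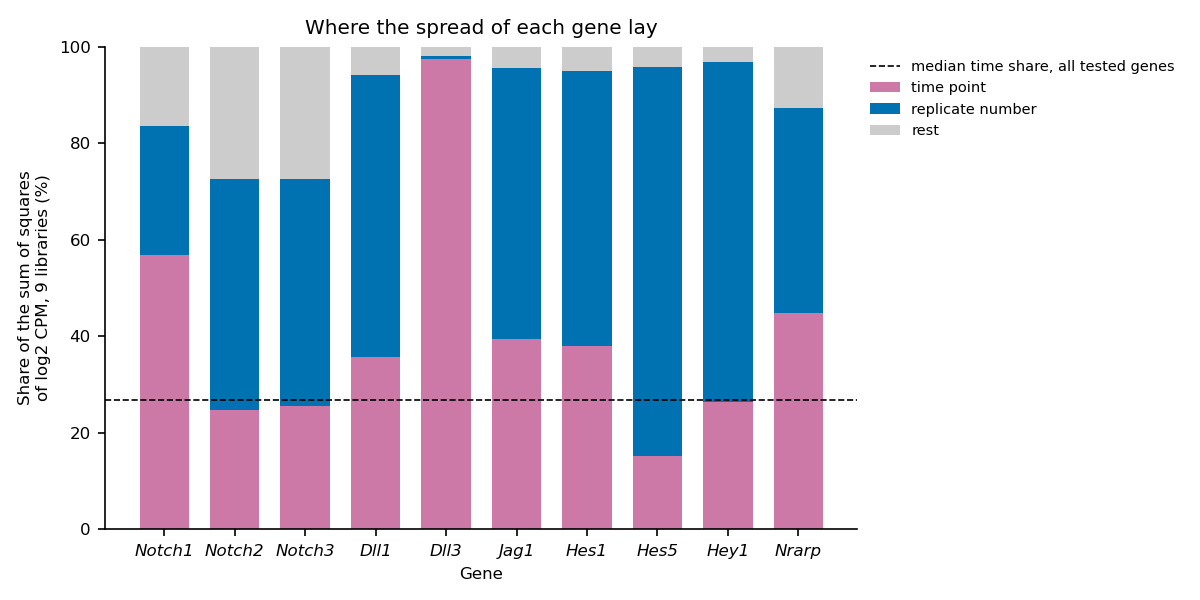
Share of the sum of squares of log2 CPM over 9 libraries (vertical axis, %) that lay between time points, between replicate numbers and in the rest, for each member. The bar of Dll3 is nearly all time (97.5%), that of Hes5 mostly replicate number (80.8%), and the dashed line is the median time share of all tested genes (26.9%).

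Other genes of the pathway were taken from a list of 70, of which 64 were tested. With time point alone 0 of 64 were called at 1 h against 0 h, 1 was higher and 1 lower at 6 h against 0 h, and 1 was higher at 6 h against 1 h. Of all tested genes this fit called 0.0424%, 2.42% and 2.14% in these comparisons. The gene called lower was Lfng, which encodes a glycosyltransferase that adds sugars to Notch receptors and alters which ligands they respond to. Lfng fell from 181 ± 13.6 CPM to 126 ± 11.5 CPM (n = 3, SD), a difference of -0.53 on the log2 scale (SE 0.10, adjusted p = 0.0426 in edgeR), and its call held in 1 of 9 fits lacking 1 library (adjusted p of up to 0.162) and in 9 of 9 with the block.

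With the block 23 of the 64 genes were higher and 12 lower at 6 h against 0 h, which is 35 of 64 where 34.9% of all tested genes were called, and their median log2 fold change was 0.11. At 1 h against 0 h 2 were higher and 2 lower, where 3.51% of all tested genes were called. At 6 h against 1 h 23 were higher and 10 lower, where 18% of all tested genes were higher and 17.5% lower. Among the other receptors and ligands 3 of 7 were higher at 6 h and 0 lower, of which Dlk2 and Cntn1 were named after their values had been seen. The third was Dll4, the Delta-like ligand best known from endothelial cells, which stayed low with 0.216 ± 0.130 CPM at 0 h and 1.04 ± 0.709 CPM at 6 h (log2 fold change 2.24, SE 0.24, adjusted p = 1.9e-05 in edgeR with the block). Of the 3 other HES and HEY genes tested 1 was higher, Hes6, which counteracts Hes1 and promotes neuronal differentiation. Hes6 had 100 ± 30.7 CPM at 0 h and 163 ± 33.6 CPM at 6 h (n = 3, SD), 0.72 on the log2 scale in the block fit (SE 0.08, adjusted p = 1.5e-05 in edgeR). It was higher in 3 of 3 replicates, as were 31.5% of all tested genes.

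Of the 12 genes of endocytosis and ubiquitination, which internalise ligands and receptors, 7 were higher and 2 lower at 6 h against 0 h with the block, where 17.4% of all tested genes were higher and 17.5% lower. The same background holds for the groups that follow. Numb, which inhibits Notch and is inherited unequally in asymmetric divisions, had 34.6 ± 7.83 CPM at 0 h and 52.1 ± 7.73 CPM at 6 h (log2 fold change 0.61, SE 0.06, adjusted p = 1.5e-05 in edgeR with the block). Neurl1b, a ubiquitin ligase of Notch ligands, had 15.8 ± 9.19 CPM and 25.4 ± 15.6 CPM (0.70, SE 0.13, adjusted p = 0.000943). Of the 9 genes of ligand and receptor processing, which include the subunits of gamma-secretase, 5 were higher and 1 lower, and of the 5 of receptor glycosylation 1 was higher, Mfng, which was named after its values had been seen, and 1 lower, Lfng. The nuclear genes were divided. Of 7 activators 1 was higher (Ep300) and 1 lower (Kat2a, named after its values had been seen), and of 10 corepressors 2 were higher and 3 lower, with Tle2, a Groucho-type corepressor, at 59.6 ± 24.3 CPM at 0 h and 75.5 ± 25.5 CPM at 6 h (0.37, SE 0.05, adjusted p = 0.000201 in edgeR with the block). Rbpj itself was not called, with 84.2 ± 10.4 CPM at 0 h, 76.8 ± 12.7 at 1 h and 77.0 ± 4.0 at 6 h (log2 fold change at 6 h -0.12, adjusted p = 0.151 in edgeR with the block).

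Of 8 further genes reported to respond to Notch, 1 was higher and 4 lower at 6 h against 0 h with the block, where 17.4% of all tested genes were higher and 17.5% lower. Tnc, which encodes the extracellular matrix protein tenascin C, had 2490 ± 708 CPM at 0 h and 1600 ± 511 CPM at 6 h (log2 fold change -0.64, SE 0.07, adjusted p = 1.2e-05 in edgeR with the block). All 4 of the other pathway genes called at 1 h with the block, where 3.51% of all tested genes were called, were in this group. Myc, a growth regulator, had 109 ± 7.78 CPM at 0 h and 76.0 ± 12.7 CPM at 1 h (-0.53, adjusted p = 0.0024 in edgeR with the block), and at 6 h its log2 fold change was -0.53 as well (adjusted p = 0.000236). Id3, an inhibitor of basic helix-loop-helix factors, had 83.2 ± 7.90 CPM at 0 h and 57.6 ± 11.4 CPM at 1 h (-0.54, adjusted p = 0.000973 in edgeR with the block). At 6 h against 0 h Id3 was not called (0.11, adjusted p = 0.261 in edgeR with the block). Its value at 6 h against 1 h was 0.65 (adjusted p = 2.2e-05 in edgeR with the block). Sox9, a transcription factor of NSCs and glia, was higher at 1 h with 107 ± 15.4 CPM against 79.7 ± 9.93 CPM (0.43, adjusted p = 0.0012 in edgeR with the block). Id1, of the same family as Id3, was higher at 1 h with 14.2 ± 3.78 CPM against 11.3 ± 2.60 CPM (0.33, adjusted p = 0.0266 in edgeR with the block), a call that was kept in 4 of 9 fits lacking 1 library and was lost with GC content and length trends removed (adjusted p = 0.0669). At 6 h against 0 h Id1 was not called (0.027, adjusted p = 0.812 in edgeR with the block). The remaining 4 of the 8 genes with the smallest p at 1 h were Kdm5a, Ep300, Dtx4 and Neurl1b, with log2 fold changes from -0.19 to -0.39 and adjusted p from 0.101 to 0.136 in edgeR with the block.

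For 4 members the genes with the most similar course were looked up, by Pearson's r of log2 CPM over the 9 libraries after subtraction of the mean of each replicate number, among the genes with a mean of at least 5 CPM. These values describe the libraries, which all genes share, and carry no test. Nearest to Dll1 were Unc13a (r = 0.99), Kif26a (0.98) and Jarid2 (0.98). Nearest to Hes1 were Orc5, Pik3cb and Dync1li2 (each 0.98). Nearest to Hes5 were Zfp874a (0.99), Gper1 (0.97) and Rhobtb1 (0.97). Nearest to Nrarp were Nr2e1 (0.99), Rai1 (0.98) and Trip4 (0.97), of which Nr2e1 encodes TLX, a nuclear receptor of adult NSCs.

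Markers of other cell types that also use the pathway were measured beside the members. The 6 endothelial markers summed to between 2.06 and 16.2 CPM, with Cdh5 and Cldn5 at no more than 3 counts in any library. The 6 mural markers summed to between 52.1 and 95.2 CPM at 0 h, between 63.3 and 109 CPM at 1 h and between 32.6 and 45.9 CPM at 6 h, most of it from Acta2. At 6 h against 0 h with the block, where 17.4% of all tested genes were higher and 17.5% lower, 3 mural markers were tested. Acta2 and Rgs5 were lower, and Pdgfrb was higher, from 0.165 ± 0.192 CPM to 2.12 ± 2.47 CPM (n = 3, SD). Their part in the values of Notch3 was not tested. The 5 markers of oligodendrocyte progenitors summed to between 1690 and 2288 CPM at 0 h and between 2162 and 2510 CPM at 6 h, most of it from Olig1 and Olig2. Of the 5 markers 4 were higher at 6 h with the block, where 17.4% of all tested genes were higher. Olig1 was not called (adjusted p = 0.0991 in edgeR with the block). Sox10 was near the floor, at 0.0893 ± 0.0745 CPM at 0 h and 0.210 ± 0.156 CPM at 6 h. Only Cspg4 was also called with time point alone, where 2.42% of all tested genes were called. It went from 65.9 ± 10.2 CPM to 174 ± 19.9 CPM (log2 fold change 1.40, adjusted p = 0.00672 in edgeR). The part of these markers in the rise of Dll3 was not tested. The 5 ependymal markers summed to between 45.9 and 86.8 CPM at 0 h and between 37.4 and 59.2 CPM at 6 h, and the 5 markers of oligodendrocytes to between 48.6 and 83.1 CPM and between 66.1 and 117 CPM. The 6 markers of astrocytes summed to between 1308 and 1650 CPM at 0 h and between 1592 and 1898 CPM at 6 h, and the 7 of neuroblasts and neurons to between 1141 and 1740 CPM and between 1092 and 1811 CPM. Map2 made up most of the last sum, at 1133 CPM in the mean of both time points. With the block 2 of these 7 markers were higher at 6 h and 0 lower, where 17.4% of all tested genes were higher and 17.5% lower. Dcx, Dlx2, Elavl4, Map2 and Sox11 were not called, with log2 fold changes of -0.35, -0.45, -0.20, -0.0099 and 0.012 with the block. The 2 called were Tubb3, from 3.76 ± 1.52 CPM to 7.83 ± 3.00 CPM, and Elavl3, from 9.20 ± 1.24 CPM to 16.8 ± 2.67 CPM (n = 3, SD). Elavl3 was also called with time point alone (adjusted p = 0.0405 in edgeR). Vim, Fabp7 and Nes made up most of the sum of the 9 NSC markers. Of these 9 markers 3 were higher at 6 h against 0 h with the block (Msi1, Egfr and Sox1) and 2 lower (Nes and Vim). Msi1 was also called with time point alone (adjusted p = 0.0251 in edgeR). The single markers in these sentences were named after their values had been seen.

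Several members share exon bases with a neighbouring gene in the annotation, and whether the counting used strand is not stated. Nrarp (ENSMUSG00000078202, GRCm38 chromosome 2, 25180758 to 25183339, plus strand) shares 79.4% of its exon bases with Gm38287 on the opposite strand, which had 0 counts in all libraries. Hes5 (ENSMUSG00000048001, chromosome 4, 154960923 to 154962371, plus strand) shares 31.8% with Gm20421, which had at most 1 count, and Dll1 (ENSMUSG00000014773, chromosome 17, 15367354 to 15376872, minus strand) shares 20.5% with A930024N18Rik, which had 28 to 69 counts per library. If strand was not used, reads in shared bases would have been left out of both genes, and levels per kilobase of all exon bases would be too low for these members. As a check of the table, the 37 protein-coding genes with at least 99% of their exon bases under exons of the opposite strand had at most 288 counts each over the 9 libraries, so none had the 1000 counts that would have shown counting by strand. Dll3 (ENSMUSG00000003436, chromosome 7, 28293553 to 28302238, minus strand), Jag1, Hes1 and Hey1 share no exon bases with another gene. Notch1 shares 7.50% with 0610009E02Rik and 2.91% with Gm13568 on the opposite strand, Notch3 shares 6.03% with Gm17276, and Notch2 shares 5.02% with Gm42820 on its own strand.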

How the data were processed

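Per the labels and the methods of the study, RNA was extracted with the mirVana kit, mRNA was sequenced as stranded paired-end libraries, and the authors aligned reads with STAR 2.5.3a to mm10 (GRCm38) and deposited raw counts of reads per gene, without normalisation. In the methods, however, this kit is named under RNA immunoprecipitation and another kit under gene expression assays. The part of the methods on RNA-seq names no extraction kit. FastQC and DESeq2 1.22.1 are named for quality control and differential expression. The strand setting and what libraries with the same number share are not given in the sources used here. Total counts were 65871454 to 105592597 per library, and the lowest chi-square per degree of freedom over 36 pairs of libraries was 12.8.

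Symbols, positions and exon lengths came from GENCODE M21 (48144 of 48526 identifiers matched). Genes were filtered with filterByExpr (minimum count 10, minimum total count 15), which left 18858, and scaled with TMM in edgeR 4.0.16 (R 4.3.3, limma 3.58.1). CPM are counts divided by the scaled library size. The 9 libraries were fitted together by glmQLFit and glmQLFTest with time point as the group, and p-values were adjusted over all tested genes by Benjamini-Hochberg with a threshold of 0.05. Standard errors were derived from the F statistic. Replicate numbers come from the labels. Deviations from the means of the time points correlated at 0.733 to 0.800 in 9 pairs with the same number and at -0.462 to -0.314 in 18 other pairs, so the numbers pair the samples, and the fit with a replicate block is given where it changed a call. Alternatives were DESeq2 1.42.0 with and without the block, other scalings and filters, fits of 6 libraries, an adjusted p under 0.01, leaving out each library, and a correction of each library for GC content and length (splines with 4 degrees of freedom) with the block. The script was tested on simulated data. Log2 CPM used a prior count of 2. Members and gene lists were chosen with earlier results of these data known. Genes of the pathway list were named where they were past the threshold with time point alone, were among the 8 with the smallest p with the block at 1 h or 6 h against 0 h, or were Rbpj, Hes6, Lfng or Numb, and others are named as such. A gene that this rule names is not reported here. Promoter windows are those of RefSeq on GRCm38.p6. Tables and figures were made with Python 3.11.15, pandas 2.3.3, numpy 2.4.6 and matplotlib 3.10.9. Splicing and proteins were not analysed here.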

Additional observations from a re-analysis of the deposited data

How the results depend on the processing

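The replicate block was the choice that moved the members most. Members called at 1 h against 0 h, 6 h against 0 h and 6 h against 1 h numbered 0, 1 and 1 without it and 2, 7 and 6 with it. The block raised the calls among all tested genes too, from 0.0424%, 2.42% and 2.14% to 3.51%, 34.9% and 35.6%. With the block, DESeq2 gave 2, 6 and 6, library totals without a scaling factor 2, 7 and 7, and removal of GC content and length trends 2, 7 and 6. Without the block, fitting only the 6 libraries compared gave 0 at 6 h against 1 h, and every other alternative, including DESeq2 and the adjusted p under 0.01, kept the counts of 0, 1 and 1. Over all fits that left out 1 library, with and without the block, the members called ranged from 0 to 3, from 1 to 8 and from 1 to 8, and the median log2 fold change of the members from -0.31 to 0.042, from 0.15 to 0.30 and from 0.21 to 0.50. The median at 6 h against 0 h was 0.16 with GC content and length trends removed and the block, against 0.24 with time point alone. Among the 64 other pathway genes tested the block raised the calls to 4, 35 and 33 from 0, 2 and 1, beside the rise among all tested genes. It lost no call that was made without it among the members and the named genes. With the longest transcript the levels at 0 h moved to 34.1 for Notch1, 4.42 for Dll3, 18.7 for Hes1 and 16.6 CPM per kilobase for Hey1, since these genes have exons outside that transcript. On the exon bases that no other gene shares they moved to 15.3 for Notch3, 22.1 for Dll1 and 2.93 CPM per kilobase for Nrarp.

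Signs changed only for values that were not past the threshold with time point alone. At 6 h against 0 h Notch2 was at 0.00020 with library totals and the block, and Nrarp at -0.018 with GC content and length trends removed and the block. Over the fits that left out 1 library, the log2 fold change at 1 h against 0 h ranged from -0.23 to 0.27 for Dll1, from -0.75 to 0.32 for Hes5, from -0.37 to 0.077 for Hey1, from -0.13 to 0.098 for Notch3 and from -0.94 to 0.14 for Neurl1b. At 6 h against 0 h it ranged from -0.12 to 0.044 for Notch2 and from -0.068 to 0.28 for Nrarp, and at 6 h against 1 h from -0.077 to 0.32 for Hes1, from -0.26 to 0.12 for Jag1 and from -0.0023 to 0.24 for Notch2. The cause of these shifts was not tested. Of the other values for single genes, 990 kept direction and side of the threshold, 296 kept direction and came past it, and 26 kept direction and were lost. Low counts limit Nrarp. Hes5 is limited by the counts of replicate 1 (67 to 173) and by its spread between replicate numbers (80.8%). Intervals cover only the spread between these libraries.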
